A study of Gossypium hirsutum with 2 samples.

Results

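The genes described here belong to the small RNA pathway of cotton: argonautes, Dicer-like enzymes, RNA-dependent RNA polymerases and their helpers. They were chosen by annotation text alone, as every unigene (an assembled transcript sequence) whose text names an argonaute, Dicer, an RNA-dependent RNA polymerase, HEN1, HYPONASTIC LEAVES, a double-stranded RNA protein or a suppressor of gene silencing. The choice gave 134 of 136262 unigenes, which carry 43 different texts. The texts for HEN1 and HYPONASTIC LEAVES matched 0 unigenes.

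The RNA came from upland cotton (Gossypium hirsutum) sampled 10 days post anthesis, with 1 library for each of 2 tissues. WT fiber was fiber of the cultivar Xuzhou142, genotype wild type. FL ovule was ovule of XZ142FLM, genotype li3li3n2n2, whose seeds are hairless (fuzzless-lintless). Both were grown in a greenhouse under long days; the number of plants behind each library is not given in the sources used here. Tissue, genotype and library differed together, so their parts in any difference cannot be told apart.

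In plants, Dicer-like enzymes cut double-stranded RNA into small RNAs, which argonaute proteins bind and use as guides to cleave a matching RNA, block its translation or direct DNA methylation. RNA-dependent RNA polymerases make double-stranded RNA from single strands and so feed Dicer, and double-stranded-RNA-binding proteins help Dicer to place its cuts. Cotton fibers are single long cells that grow out of the outer layer of the ovule.

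The deposited counts of unique reads summed to 45.6 M in WT fiber against 53.4 M in FL ovule. Levels are RPKM, read counts divided by the length of the unigene and by the read total of the library, so that unigenes of different length can be compared. Where a pair of values is given without names, WT fiber comes first. For a unigene of 1 kb, a single read was worth 0.0219 RPKM (WT fiber) or 0.0187 RPKM (FL ovule). Ratios written as log2 are log2((WT fiber RPKM + 1)/(FL ovule RPKM + 1)), negative where FL ovule was higher, and the added 1 understates the difference of low unigenes. Fold values with an interval are ratios of RPKM with an exact Clopper-Pearson 95% interval from the read counts. These intervals cover counting error only, reads lack molecular identifiers and so cannot be taken as independent molecules, and with 1 library per group no test between the groups was possible. In bulk tissue, fewer cells of a type and less RNA per cell cannot be told apart. No unigene carries a genome position in the deposited tables, so none is given.

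Sums of fiber and seed coat marker genes differed in the direction of the tissue labels. Texts of expansins, fasciclin-like proteins and 3-ketoacyl-CoA synthases served as fiber markers. They summed to 13986 RPKM over 147 unigenes in WT fiber against 1879 RPKM in FL ovule, with 49.8% of the first sum in Unigene0055966. Of the 113 that reached 1 RPKM in a library, 36 (31.9%) were past 2-fold in each direction. Their median log2 ratio was -0.38, with 59 below 0. Over all unigenes at that level the median was -0.39, with 10.5% past 2-fold in WT fiber and 15.3% in FL ovule. Seed coat texts of flavonoid synthesis summed to 1362 and 5443 RPKM over 30 unigenes. Of the 29 at 1 RPKM in a library, 2 (6.90%) were past 2-fold in WT fiber and 15 (51.7%) in FL ovule. Texts of dividing cells (histones, cyclins and replication proteins) summed to 1696 and 5958 RPKM over 727 unigenes. Of these, 337 reached 1 RPKM in a library, with 21 (6.23%) past 2-fold in WT fiber and 118 (35.0%) in FL ovule. Embryo and endosperm texts summed to 1208 and 1348 RPKM over 115 unigenes. Of the 78 at 1 RPKM in a library, 17 (21.8%) were past 2-fold in WT fiber and 29 (37.2%) in FL ovule. Meristem and vascular texts summed to 2317 and 379 RPKM over 58 unigenes, with 91.1% of the first sum in 1 unigene. Most of that list went against its sum. Of 38 at 1 RPKM in a library, 30 had ratios below 0, with 3 (7.89%) past 2-fold in WT fiber and 8 (21.1%) in FL ovule. Dividing cell and seed coat texts therefore moved in the same direction as most argonautes below, and their part in those differences was not tested.

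Of the 134 small RNA pathway unigenes, 67 reached 1 RPKM in at least 1 library and are called measured. Among them 6 were past 2-fold on the WT fiber side and 7 on the FL ovule side. That is 8.96% and 10.4% of the measured members, against 10.5% and 15.3% of all 63258 measured unigenes, so the share of large differences was near or below that of the transcriptome. The median log2 ratio was -0.50, against -0.39 over all measured unigenes, with members from -1.91 to 1.53. A ratio below 0 was found in 50 members, or 74.6%, against 66.8% of all measured unigenes. The filter takes part in these signs, since 20 of the 67 (29.9%) reached 1 RPKM in FL ovule alone and 1 in WT fiber alone. It does so over all measured unigenes too, where 23313 (36.9%) reached 1 RPKM in FL ovule alone and 6038 in WT fiber alone. The differences lay in particular argonautes and in the mitovirus-like texts, while Dicer, RNA-dependent RNA polymerase, SGS3 and double-stranded-RNA-binding members had 0 unigenes past 2-fold in either direction once 1 RPKM was added to each value. Without that addition, 6 measured Dicer members were past 2-fold by RPKM on the FL ovule side and 1 double-stranded-RNA-binding member on the WT fiber side. Of all 67 measured members, 8 lay past 2-fold by this ratio on the WT fiber side and 25 on the FL ovule side. Of the 63258 measured unigenes, 9484 lay past it on the WT fiber side and 24522 on the FL ovule side.

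**Figure D1:**
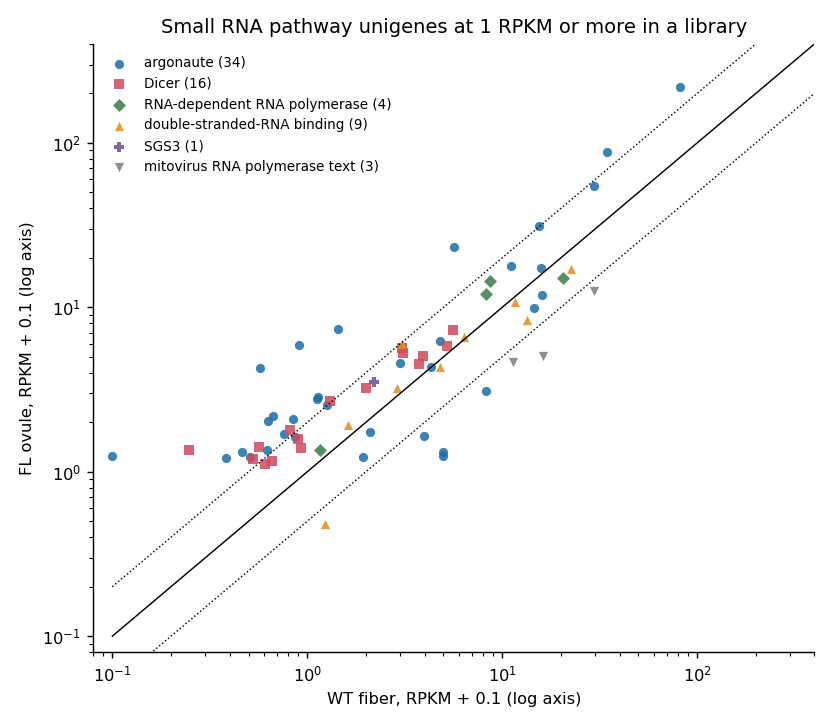
Level of each of the 67 measured small RNA pathway unigenes in WT fiber (horizontal) and FL ovule (vertical), as RPKM + 0.1 on log axes, coloured by protein class; the solid line marks equal levels and the dotted lines a 2-fold difference of the plotted values. The argonaute at the upper right, with 82.0 RPKM in WT fiber against 219 RPKM in FL ovule, had the highest level of all members in each library, and the 3 mitovirus-like unigenes are on the WT fiber side.

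Argonautes were the most abundant class. Their 57 unigenes summed to 276 RPKM in WT fiber against 542 RPKM in FL ovule, 1.96-fold more in FL ovule, and the sum stayed higher in FL ovule under each of 4 other scalings of the libraries: the median ratio over unigenes that reach 5 RPKM in each library, the upper quartile, read totals without the 30 most-read unigenes, and a common RPKM sum. Without the most abundant unigene the sums were 194 and 323 RPKM, 1.66-fold more in FL ovule. The deposited RPKM of all unigenes summed to 1.54-fold more in FL ovule, so the remaining argonautes lay close to the whole. Of 34 measured argonautes, 3 were past 2-fold on the WT fiber side and 7 on the FL ovule side, 8.82% and 20.6% against 10.5% and 15.3% of all measured unigenes, and the median log2 ratio was -0.66. These counts moved with the scaling, to 3 and 11 of 34 (median ratio), 4 and 4 of 29 (upper quartile), 2 and 17 of 35 (totals without the 30 most-read unigenes) and 5 and 4 of 29 (common sum). The shares of all measured unigenes moved too, in the same order to 8.76% and 18.7%, 18.8% and 8.35%, 6.34% and 28.4%, and 21.0% and 7.25%. As deposited, 12 of the 34 measured argonautes (35.3%) reached 1 RPKM in FL ovule alone and 0 in WT fiber alone. The filter fixed the direction of these 12, which include Unigene0102045, Unigene0102046 and Unigene0020815 among the FL ovule calls. Over all measured unigenes, 36.9% reached 1 RPKM in FL ovule alone.

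In each library most argonaute reads carried the text "Argonaute family protein isoform 1", matched to Theobroma cacao (cacao, a relative of cotton in the mallow family). Its 6 unigenes summed to 124 RPKM in WT fiber against 334 RPKM in FL ovule, 2.70-fold more in FL ovule. They held 51.0% of the argonaute reads in WT fiber (50.3% to 51.6%) and 67.1% in FL ovule (66.7% to 67.5%), a share that no scaling of the libraries can move. Unigene0080982, of 2566 bases, was at 82.0 RPKM (9599 reads) in WT fiber against 219 RPKM (30041 reads) in FL ovule, 2.67-fold higher in FL ovule (2.61 to 2.74). Unigene0080983, the next identifier with the same text, was at 34.4 and 87.8 RPKM, 2.55-fold higher in FL ovule (2.42 to 2.69). Unigene0106386, of 4374 bases, was at 5.57 and 23.0 RPKM, 4.14-fold higher in FL ovule (3.88 to 4.42). Unigene0106385 was lower, at 0.57 and 2.08 RPKM, with a ratio of the same direction. Levels within the text thus differed widely, while the sum stayed higher in FL ovule under each scaling.

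A larger fold between summed levels belonged to the text "Argonaute family protein" without an isoform, also matched to cacao. Its 3 unigenes summed to 2.62 RPKM in WT fiber against 17.2 RPKM in FL ovule, 6.57-fold more in FL ovule. Unigene0134734 was at 1.34 RPKM (201 reads) and 7.25 RPKM (1269 reads), 5.39-fold higher in FL ovule (4.65 to 6.29). Unigene0102045 was at 0.81 RPKM (52 reads) and 5.78 RPKM (436 reads), 7.16-fold higher in FL ovule (5.37 to 9.75). Unigene0102046, which falls outside the naming rule and was chosen after its values were seen, was at 0.47 and 4.20 RPKM, 8.93-fold higher in FL ovule (7.04 to 11.5). All 3 were past 2-fold in FL ovule, and they were so under the upper quartile scaling too.

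Argonaute 1 is, in Arabidopsis, the main effector of microRNAs. Its 6 unigenes, with 5 texts, summed to 77.5 RPKM in WT fiber against 109 RPKM in FL ovule, a direction that turned under a common RPKM sum (log2 of the sums 0.13 there against -0.49 as deposited). Unigene0111824, annotated as Argonaute 1B and 2517 bases long, was at 29.7 RPKM (3405 reads) and 55.0 RPKM (7387 reads), 1.85-fold higher in FL ovule (1.78 to 1.93). Unigene0111822, with the same text but only 297 bases, was at 15.3 and 31.2 RPKM, 2.04-fold higher in FL ovule (1.73 to 2.41), with a log2 ratio of -0.98 that stops short of the threshold. Unigene0051034, annotated as argonaute 1-like, was at 15.6 and 17.3 RPKM, and its 1.10-fold difference had an interval of 0.990 to 1.23 that includes 1. The 3 remaining argonaute 1 unigenes lay on the other side. Unigene0098668, 211 bases with a tobacco text, was at 8.21 RPKM (79 reads) and 3.02 RPKM (34 reads), 2.72-fold higher in WT fiber (1.80 to 4.19). Unigene0098657 was at 4.85 and 1.22 RPKM and Unigene0098667 at 3.89 and 1.55 RPKM, both chosen after their values were seen. These 3 WT-side fragments are 211 to 519 bases long with 58 to 92 reads in WT fiber and 17 to 43 in FL ovule, so the argonaute 1 texts covered unigenes of both directions.

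Argonautes 4 and 16 belong to the clade that guides DNA methylation in Arabidopsis and rice. Unigenes whose text carries either number were at low levels. Texts without a number, such as the abundant family protein isoform 1, were not assigned to a clade, so the level of the whole clade is not known. The 13 unigenes annotated as argonaute 16-like summed to 1.99 RPKM in WT fiber against 5.95 RPKM in FL ovule, 2.99-fold more in FL ovule, and kept that direction under each scaling. Only 3 of the 13 were measured, and Unigene0103955, the most abundant, was at 0.75 RPKM (30 reads) and 2.0 RPKM (94 reads), 2.68-fold higher in FL ovule (1.76 to 4.18). Unigene0022409, argonaute 4-like and 216 bases long, had 4 and 13 reads, or 0.41 and 1.13 RPKM, and its interval of 0.858 to 11.7 includes 1.

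Unigene0134862, the single argonaute 5-like unigene, went the other way. Argonaute 5 is known from reproductive tissues of Arabidopsis. The unigene, of 491 bases, was at 4.87 RPKM (109 reads) in WT fiber against 1.14 RPKM (30 reads) in FL ovule, 4.25-fold higher in WT fiber (2.82 to 6.60). It was higher in WT fiber under all 4 other scalings.

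Texts that name only an argonaute protein group were split. The 3 unigenes matched to cacao summed to 30.5 RPKM in WT fiber against 22.3 RPKM in FL ovule, 1.37-fold more in WT fiber, and stayed higher there under each scaling. The 3 matched to Populus summed to 13.2 and 19.9 RPKM, a direction that turned under a common RPKM sum. Unigene0111835, the highest of the cacao group, was at 15.9 and 11.8 RPKM. It lay above Unigene0106386 and Unigene0144292 in WT fiber and below both in FL ovule. Unigene0051034 (15.6 RPKM) and Unigene0111822 (15.3 RPKM) were close to it in WT fiber and above it in FL ovule. No interval was computed for these pairs. Ratios inside a library do not depend on its scaling. Unigene0080982 was 5.14 times the level of Unigene0111835 in WT fiber (4.92 to 5.38) and 18.6 times in FL ovule (17.8 to 19.5). Unigene0111824 was 1.86 times the level of Unigene0111835 in WT fiber (1.77 to 1.96) and 4.67 times in FL ovule (4.45 to 4.90). Unigene0080982 was 2.77 times Unigene0111824 in WT fiber (2.66 to 2.88) and 3.99 times in FL ovule (3.89 to 4.09). These pairs were chosen after their values were seen.

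**Figure D2:**
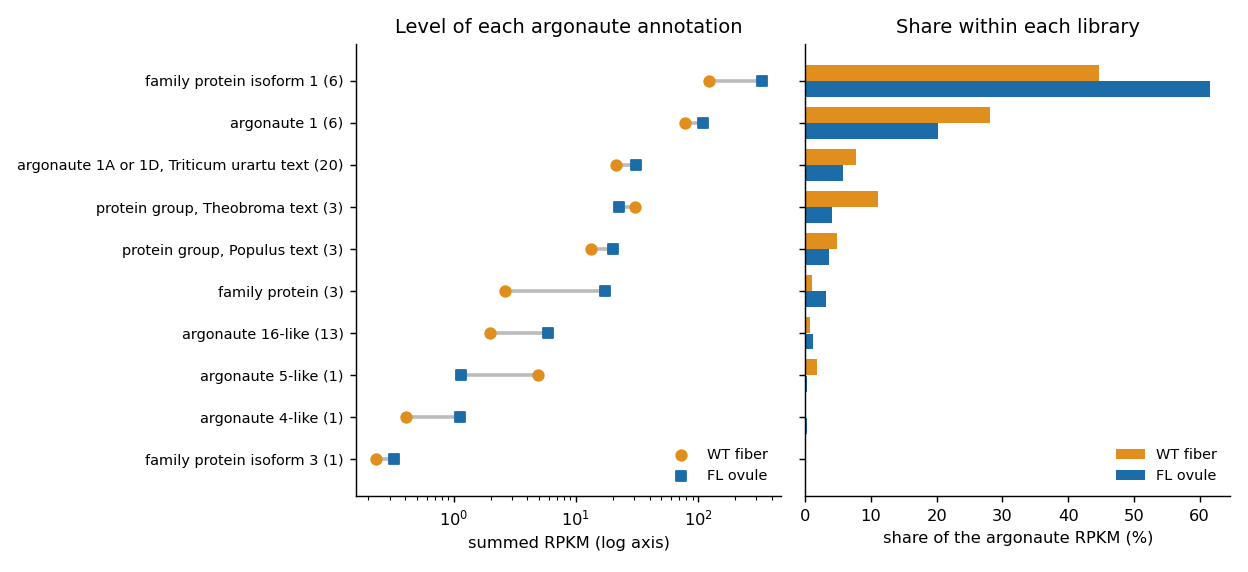
Summed RPKM of each argonaute annotation in WT fiber (orange circles) and FL ovule (blue squares) on a log axis (left), and the share of each annotation in the argonaute RPKM of its library in percent (right); the number of unigenes is in parentheses, and each sum is from 1 library without replicates. Family protein isoform 1 held 44.7% of argonaute RPKM in WT fiber against 61.6% in FL ovule, while argonaute 5-like and the Theobroma protein group were higher in WT fiber; as sums, argonaute 1, the Triticum text, the Populus group and isoform 3 turn direction under a common RPKM sum.

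A further 20 unigenes carry argonaute 1A or 1D texts matched to the wheat relative Triticum urartu. They summed to 21.3 RPKM in WT fiber against 30.9 RPKM in FL ovule, a direction that turned under a common RPKM sum (log2 of the sums 0.09). Unigene0107596, the most abundant, was at 4.72 and 6.11 RPKM with an interval of the FL ovule fold from 0.930 to 1.82. Unigene0020815, of 358 bases, had 0 reads in WT fiber against 22 reads in FL ovule. Against the limit of 3 reads that a count of 0 allows, it was at least 6.27-fold higher in the ovule library, and the exact interval, which also covers the error of the 22 reads, starts at 4.68. Of these 20 unigenes, 13 carry Gene Ontology (GO) terms and 0 of the 13 carry a term for gene silencing. That does not set them apart, since all 6 argonaute 1 unigenes carry GO terms and 0 of them a silencing term. The argonaute 5-like unigene and the protein groups lack such a term too. The place of the Triticum urartu unigenes among argonautes rests on the text, as it does for all members.

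The GO terms of the deposited tables, which the choice of members did not use, divided the argonautes. This division was made after values had been seen and is a description. Of the 57 argonautes, 21 carry a term for gene silencing, and they summed to 128 RPKM in WT fiber against 357 RPKM in FL ovule, 2.79-fold more in FL ovule, under every scaling in that direction. Of these 21, 11 were measured, 7 of them through FL ovule alone, so the filter fixed the direction of these 7. Another 27 carry GO terms without a silencing term, and they summed to 142 and 179 RPKM, a direction that turned under the upper quartile scaling and under a common RPKM sum. Within the first set, 4 unigenes of family protein isoform 1 carry a histone lysine methylation term and summed to 123 and 332 RPKM. The 3 unigenes of the text "Argonaute family protein" carry a term for production of small interfering RNA.

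Dicer-like enzymes were present at low levels. Their 37 unigenes summed to 34.6 RPKM in WT fiber against 54.2 RPKM in FL ovule. That is 1.57-fold more in FL ovule, against 1.54-fold over all unigenes. On the scale with 1 RPKM added, 0 of 16 measured members were past 2-fold in either direction. Of all measured unigenes, 10.5% (WT fiber) and 15.3% (FL ovule) were. With totals that leave out the 30 most-read unigenes, 3 of 20 were past 2-fold on the FL ovule side, against 28.4% of all measured unigenes. The median log2 ratio of the 16 as deposited was -0.48. Of the 16, 8 reached 1 RPKM in FL ovule alone, which fixed their direction, and of the 21 members under the filter 3 had ratios above 0. Under upper quartile scaling or a common RPKM sum 6 of 10 measured Dicer members were below 0. By RPKM without the added 1, 6 of the 16 were past 2-fold in FL ovule and 0 in WT fiber. Of the 63258 measured unigenes, 24522 lay past that ratio on the FL ovule side and 9484 on the other. The 6 members include Unigene0043731, annotated as Dicer homolog 2-like, with 2 and 20 reads. Its 8.55-fold difference had a wide interval, from 2.08 to 75.4, and this unigene was chosen after its values were seen. The 5 most abundant were short, from 213 to 481 bases, and all carry general Dicer-like texts. Unigene0050081 was at 5.48 RPKM (84 reads) and 7.19 RPKM (129 reads), with an FL ovule fold of 1.31 (0.989 to 1.75). Unigene0046638 was at 5.10 and 5.73 RPKM, with a fold of 1.12 (0.871 to 1.45). Unigene0043733 was at 3.81 and 4.93 RPKM, with a fold of 1.29 (0.839 to 2.02). For these 3 the counting interval includes 1, and the log2 ratio turned above 0 under the upper quartile and common sum scalings. Unigene0051672 was at 2.96 and 5.52 RPKM, 1.86-fold higher in FL ovule (1.34 to 2.61). Unigene0051670 was at 2.99 and 5.20 RPKM, 1.74-fold higher in FL ovule (1.25 to 2.46).

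Dicer-like 1 makes microRNAs in Arabidopsis, from hairpin precursors. The 9 unigenes with a Dicer-like 1 text, or with a text that lists helicase, argonaute and Dicer domains, reach 7351 bases and summed to 1.46 RPKM (230 reads) in WT fiber against 3.91 RPKM (660 reads) in FL ovule. Only 1 of the 9 was measured. Unigene0108905 was at 0.72 RPKM (104 reads) and 1.70 RPKM (288 reads), 2.37-fold higher in FL ovule (1.88 to 2.99), and was chosen after its values were seen.

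RNA-dependent RNA polymerases differed in direction within the class. Their 12 unigenes summed to 39.3 RPKM in WT fiber against 46.0 RPKM in FL ovule, a direction that turned under the upper quartile scaling and under a common RPKM sum. RNA-dependent RNA polymerase 6, which in Arabidopsis makes the precursors of trans-acting small RNAs, was the highest of the class in both libraries. Its unigene, Unigene0137510 of 4328 bases, was at 20.3 RPKM (4017 reads) in WT fiber against 14.9 RPKM (3448 reads) in FL ovule, 1.36-fold higher in WT fiber (1.30 to 1.43). RNA-dependent RNA polymerase 2, which in Arabidopsis makes the precursors of small RNAs that direct DNA methylation, was at 8.54 RPKM (1331 reads) and 14.3 RPKM (2611 reads) as Unigene0104101, 1.68-fold higher in FL ovule (1.57 to 1.79). Both kept these directions under each scaling. Unigene0109540, annotated as a cotton RNA-dependent RNA polymerase without a number, was at 8.14 and 11.9 RPKM, 1.46-fold higher in FL ovule (1.37 to 1.56), and turned to 0.07 on the log2 scale under a common RPKM sum.

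The ratio of polymerase 6 to polymerase 2 within a library does not depend on its scaling. It was 2.38 in WT fiber (2.24 to 2.54) and 1.04 in FL ovule (0.990 to 1.10), so the gene for polymerase 6 stood clearly above that for polymerase 2 in WT fiber and within counting error of it in FL ovule. The ratio of polymerase 6 to Unigene0109540 stood at 2.50 in WT fiber but 1.25 in FL ovule. These pairs were chosen after their values were seen.

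The remaining polymerases were low. Unigene0111940, annotated as polymerase 5-like, was at 1.07 and 1.27 RPKM, with an FL ovule fold of 1.19 (0.970 to 1.45). Unigene0019260, annotated as polymerase 1-like, had 4 and 16 reads, or 0.25 and 0.85 RPKM. Polymerase 1 is known in Arabidopsis for its part in the defence against viruses. SUPPRESSOR OF GENE SILENCING 3, the partner of polymerase 6 in Arabidopsis, was matched by Unigene0054264 (SGS3) alone, of 208 bases. It had 20 reads (2.11 RPKM) in the fiber library and 38 (3.42 RPKM) in the ovule library, and the interval of its 1.62-fold difference, 0.921 to 2.94, includes 1.

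Double-stranded-RNA-binding proteins had summed levels that differed little between the libraries as deposited, 1.13-fold more in WT fiber. Upper quartile scaling made this 1.57-fold and a common RPKM sum 1.75-fold. The 24 unigenes of the class summed to 70.4 RPKM in WT fiber against 62.2 RPKM in FL ovule as deposited. That direction turned with library totals that leave out the 30 most-read unigenes. Of 9 measured members 5 had ratios above 0, and the median was 0.11. Binding protein 2 was the most abundant, with 9 unigenes summing to 56.2 and 45.8 RPKM. Unigene0095561, its longest named unigene with 1739 bases, was at 13.4 RPKM (1061 reads) and 8.31 RPKM (771 reads), 1.61-fold higher in WT fiber (1.47 to 1.77). Unigene0090031, of 214 bases, was at 22.4 and 17.1 RPKM, 1.31-fold higher in WT fiber (1.08 to 1.60). Unigene0090034 was at 11.6 and 10.7 RPKM and Unigene0095560 at 6.23 and 6.48 RPKM, each with an interval that includes 1.

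Binding protein 1 corresponds to HYPONASTIC LEAVES 1, the partner of Dicer-like 1 in Arabidopsis, and was found under the double-stranded RNA texts. Its 6 unigenes summed to 10.8 RPKM in WT fiber against 14.1 RPKM in FL ovule, 1.30-fold more in FL ovule, against 1.54-fold over all unigenes. Unigene0082520 was at 4.72 and 4.23 RPKM with a WT fiber fold of 1.12 (0.971 to 1.28). Unigene0135500, the highest of the text in FL ovule, was at 2.96 and 5.91 RPKM, 2.0-fold higher in FL ovule (1.71 to 2.34). Binding protein 4, the partner of Dicer-like 4 in Arabidopsis, had 9 unigenes that summed to 3.39 and 2.31 RPKM. The only measured one, Unigene0090808, was at 1.14 and 0.38 RPKM, 2.99-fold higher in WT fiber (2.09 to 4.36). Both Unigene0135500 and Unigene0090808 were chosen after their values were seen.

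**Figure D3:**
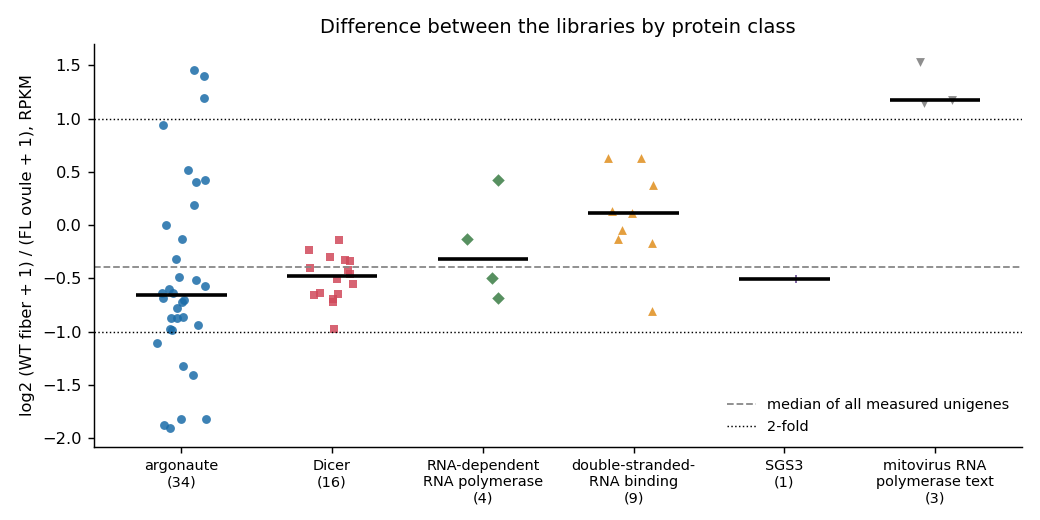
Log2 ratio of WT fiber over FL ovule, from RPKM + 1, for each measured unigene by protein class, with the number of unigenes in parentheses; thick bars are class medians, the dashed line is the median of all measured unigenes (-0.39) and dotted lines mark 2-fold. Argonautes spread from -1.91 to 1.45, Dicer members sit between -0.98 and -0.14 as deposited, of which 6 of 10 are below 0 under a common RPKM sum, and the 3 mitovirus-like unigenes lie above 1.

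The text search also took in 3 unigenes annotated as a mitovirus RNA-dependent RNA polymerase of Arabidopsis. Sequences like those of mitoviruses lie in the Arabidopsis mitochondrial genome, and they are not the silencing polymerases of the pathway. All 3 were past 2-fold in WT fiber, under each scaling except that leaving the 30 most-read unigenes out of the totals brought Unigene0012560 and Unigene0084935 to log2 ratios of 0.85 and 0.87. Unigene0012560 was at 29.4 RPKM in WT fiber against 12.4 RPKM in FL ovule, 2.36-fold higher in WT fiber (2.16 to 2.58). Unigene0097133 was at 16.2 and 4.95 RPKM, 3.26-fold higher in WT fiber (2.89 to 3.69). Unigene0084935, with 7752 bases the longest member, was at 11.2 and 4.53 RPKM, 2.48-fold higher in WT fiber (2.35 to 2.62). Unigenes whose text names the mitochondrion, a list chosen after values had been seen, summed to 13607 and 12321 RPKM over 51 unigenes with a median log2 ratio of 0.26. The part of mitochondrial RNA in the mitovirus-like difference was not tested. Of the 6 WT-side calls among all members, 3 were these texts, and without them and the Triticum urartu texts 3 of 54 measured members were past 2-fold in WT fiber against 6 in FL ovule.

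Scaling decided some class directions and not others. Relative to the deposited values, the 4 other scalings moved every log2 ratio before the pseudocount by -0.14 (median ratio), 0.47 (upper quartile), -0.36 (totals without the 30 most-read unigenes, which held 21.1% of reads in WT fiber against 38.5% in FL ovule) and 0.63 (common RPKM sum). The median of all measured unigenes moved with them, to -0.51, 0.12, -0.69 and 0.23. Over the 5 scalings the log2 ratio of the argonaute sum ran from -1.33 to -0.35 and that of the mitovirus-like sum from 1.01 to 2.0. The Dicer sum ran from -1.01 to -0.02. The RNA-dependent RNA polymerase sum ran from -0.58 to 0.40 and the double-stranded-RNA-binding sum from -0.18 to 0.81, both across 0.

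**Figure D4:**
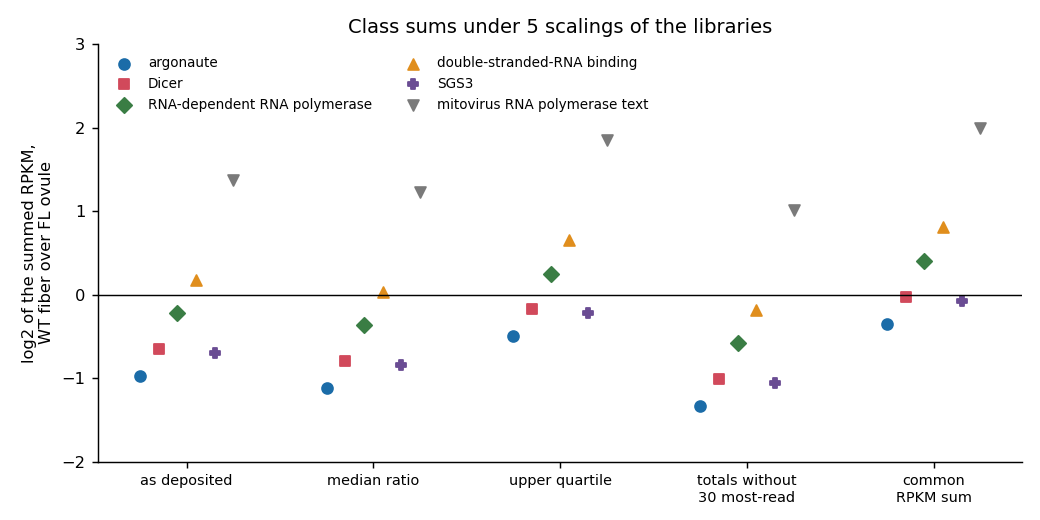
Log2 ratio of summed RPKM, WT fiber over FL ovule, for each protein class under the deposited scaling and 4 others; each point is 1 class in 1 scaling and the line marks equal sums. The argonaute sum stays below 0 and the mitovirus-like sum above 0 in all 5, while the RNA-dependent RNA polymerase and double-stranded-RNA-binding sums lie on both sides of 0.

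Assembled unigenes that resemble each other can divide the reads of a gene, and the deposited values count unique reads. Among members of 1000 bases or more, the 61 that have another unigene of the same text within 5 identifiers had a median level of 0.27 RPKM, and the 19 without one had 4.30 RPKM. The same split over all annotated unigenes of that length gave 0.56 RPKM for 25463 and 2.26 RPKM for 11805. The low values of the 9 Dicer-like 1 and the 13 argonaute 16-like unigenes stand beside this, and its part in them was not tested.

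Text patterns for partner genes of the pathway took in 134 unigenes that were not members, of which 78 were measured. The tudor pattern alone gave 75 of the 134 and 46 of the 78. Among its texts are those of a Tudor/PWWP/MBT superfamily, whose place among the partners rests on the pattern. Of the 78 measured partners, 3 were past 2-fold on the WT fiber side and 7 on the FL ovule side, with a median log2 ratio of -0.53. That is 3.85% and 8.97%, against 10.5% and 15.3% of all measured unigenes. SERRATE, a zinc-finger protein of microRNA processing in Arabidopsis, had 19 unigenes summing to 95.3 RPKM in WT fiber against 149 RPKM in FL ovule. This 1.56-fold difference was close to the 1.54-fold of the sum over all unigenes. Unigene0037519 was at 5.05 and 16.0 RPKM and Unigene0046996 at 3.42 and 12.2 RPKM, the 2 SERRATE unigenes past 2-fold. KTF1, which in Arabidopsis binds argonaute 4 in the DNA methylation pathway, was past 2-fold in Unigene0107985, at 3.36 and 7.98 RPKM. The tudor pattern took in 75 unigenes, with Unigene0048259 at 2.73 and 8.33 RPKM and Unigene0048260 at 4.74 and 12.3 RPKM on the FL ovule side.

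On the WT fiber side stood Unigene0063684, annotated as the largest subunit of RNA polymerase V, an enzyme that in Arabidopsis makes scaffold transcripts for DNA methylation, at 18.8 and 7.05 RPKM. A second unigene with a polymerase V text, Unigene0145753, was at 24.6 and 42.6 RPKM, so the name covered both directions. The polymerase IV subunit Unigene0139784, whose enzyme supplies polymerase 2 with its templates in Arabidopsis, was at 23.5 and 32.8 RPKM. Both of these last unigenes were chosen after their values were seen. Unigene0072506 and Unigene0072507, annotated as TUDOR-SN nucleases, were at 25.7 and 12.2 RPKM and at 36.4 and 14.7 RPKM. Other TUDOR-SN unigenes differed less or went the other way. Unigene0112973, the most abundant of the tudor pattern, was at 86.0 and 73.5 RPKM, and Unigene0043554 at 8.67 and 15.4 RPKM. These last unigenes too were chosen after their values were seen. The texts for exportin-5 (HASTY), DAWDLE, CLASSY, IDN2, domains rearranged methyltransferases, SHH1, TOUGH and STABILIZED1 matched 0 unigenes.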

How the data were processed

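Each deposited table gives, per the file headers, the count of unique reads for every unigene as a whole number. The RPKM deposited by the authors is that count divided by unigene length and library read total. The submitters' processing notes name Bowtie and Bowtie2 with neither version nor role. Assembler, annotation database, genome build and strandedness were each not given in the sources used here, and neither was whether the oligo-dT part or the ribosomal-RNA-depleted part was counted. A unigene absent from a table was taken as 0 reads, which holds for 10 members. The reference gene table held 0 of the unigene names, so texts are those of the deposited tables. The depth was 45.6 M and 53.4 M reads.

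Members were matched by text without regard to case, with the 5 unigenes that share the helicase text counted under Dicer. Named unigenes were the 5 most abundant of each class by mean RPKM, those at 5 RPKM or more in a library and past 2-fold, the most abundant of each numbered argonaute type, and those absent from 1 table with 10 or more reads in the other, 33 in all. The members and lists were chosen with earlier results of these data known. Alternatives changed the pseudocount, the RPKM filter, the fold threshold, the scaling, the length minimum and the texts included. With 1 library per group no p-value was computed. Ratios and intervals were tested on simulated data. Python 3.11.15, pandas 2.3.3, numpy 2.4.6, scipy 1.17.1 and matplotlib 3.10.9 were used.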

Additional observations from a re-analysis of the deposited data

How the results depend on the processing

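With 1 library per group no replicate could be left out, and no paired analysis was possible because the groups share no replicate pairs. As deposited, 6 members were past 2-fold in WT fiber and 7 in FL ovule, with a median log2 ratio of -0.50. A pseudocount of 0.1 gave 24 in FL ovule and a median of -0.68; a pseudocount of 5 gave 1 and 3 and a median of -0.18. An RPKM minimum of 5 gave a median of -0.33, against 0.055 over all unigenes at that setting. Without a filter the median was -0.14, against -0.24 over all unigenes, so the order of members and all unigenes turned with the filter. At 4-fold, with 1 RPKM added to each value, 0 members were past the threshold in either direction, against 2.80% and 2.19% of all measured unigenes. The median ratio scaling gave 12 in FL ovule and a median of -0.61, upper quartile scaling 4 and 0.0027, and library totals without the 30 most-read unigenes 3 in WT fiber, 24 in FL ovule and -0.84. A common RPKM sum gave 10 in WT fiber, 4 in FL ovule and 0.13. With 1 unigene per text 2 were past 2-fold in FL ovule and the median was -0.31. Unigenes of 500 bases or more gave 3 in WT fiber, and so did leaving out the Triticum urartu and mitovirus texts, an alternative chosen after seeing the data. At 500 bases or more, 7.69% of measured members were past 2-fold in WT fiber and 15.4% in FL ovule. The shares of all measured unigenes of that length were 11.9% and 13.3%. Over all measured unigenes the shares past 2-fold in WT fiber and FL ovule went from 10.5% and 15.3% to 14.5% and 36.6% (pseudocount 0.1), 4.57% and 2.90% (pseudocount 5), 22.0% and 18.1% (RPKM minimum 5), 8.76% and 18.7% (median ratio), 18.8% and 8.35% (upper quartile), 6.34% and 28.4% (totals without the 30 most-read) and 21.0% and 7.25% (common sum). Of the 11 named unigenes past 2-fold, 8 were still past it under upper quartile scaling, 8 under a common RPKM sum, 8 with those totals and 4 with a pseudocount of 5, and none of the 11 turned direction under a scaling. Of all 33 named unigenes, 8 changed sign under a common RPKM sum, 7 under upper quartile scaling, 2 with those totals and 1 under the median ratio. The causes of these shifts were not tested. Members under 3 reads cannot be placed at this depth.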
